A study of Homo sapiens with 54 samples.

Results

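Of the 73608 regions that carried an ATAC-seq peak in all 3 untreated MDA-MB-231 peak lists, 1350 (1.83%) had no peak in any of the 3 lists of cells that survived cisplatin and were taken 10 days after the drug was removed. These 1350 closed regions were found by merging the peaks of all 18 deposited lists, on chromosomes 1 to 22 and X, into 232138 regions. A list was counted as having a region where 1 of its peaks overlapped it by at least 1 bp. Closed means here that no peak was called. It does not mean that no read fell there, since read counts and depth cannot be recovered from peak lists. The peaks of untreated and day 10 MDA-MB-231 cells chose the regions, so the loss itself is a description and carries no test.

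ATAC-seq maps open chromatin with a transposase that cuts and tags DNA not wrapped in nucleosomes. MDA-MB-231 is a triple-negative breast cancer line with mesenchymal features, and PC3 is a prostate cancer line. Each line gave 3 groups, namely untreated control cells, survivors 1 day after removal of cisplatin (day 1) and survivors 10 days after removal (day 10). The 54 sequenced samples are 3 biological replicates per group, tagmented in triplicate, and each biological replicate has 1 peak list (18 lists, n = 3 per group). Dose and exposure time were not used here, and survivors and untreated cells differ both in drug exposure and in which cells remained.

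Active promoters and enhancers are kept open by transcription factors and chromatin remodellers. Strong constitutive promoters give large peaks, while distal elements and the promoters of genes that are little used give smaller ones. Cisplatin crosslinks neighbouring bases of DNA and stalls replication and transcription. In bulk cells, a site that is less open in each cell and fewer cells with the open site cannot be told apart.

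The MDA-MB-231 lists held from 82392 to 98777 peaks in control, from 100564 to 133526 at day 1 and from 103830 to 126462 at day 10. Every day 10 list thus held more peaks than every control list. Covered length overlapped, at 54.4, 65.8 and 70.9 Mb in control and 58.4, 59.7 and 71.1 Mb at day 10. Peaks in regions of all 3 control lists had median areas of 909, 880 and 934 in control and 798, 734 and 892 at day 10. PC3 lists held from 106577 to 165535 peaks. Windows at the mesenchymal markers VIM, CD44, AXL, ZEB1, EGFR and FOSL1 had a peak in 3 of 3 lists of every group. Of the 4 luminal breast markers, GATA3 and FOXA1 also had one in 3 of 3 lists of every group, while ESR1 and PGR, the oestrogen and progesterone receptors, had one in 0 of 3 MDA-MB-231 control lists and in 3 of 3 at day 1 and at day 10. Of the 4 markers of other cells, PTPRC and PECAM1 had no peak in any list, CD3E, whose window covers either gene end, had one in 3 of 3 lists of every group, and CDH5 had one in 2 of 3 PC3 day 10 lists and in no other list. No closed region lay in any of the marker windows.

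The promoters below are shown because a closed region overlapped them. The first 5 belong to genes whose region was also in 3 of 3 PC3 control lists and 0 of 3 PC3 day 10 lists, and the last 3 to genes whose region was not lost in PC3, with no PC3 control or day 10 peak at SMTN and RAB42 and 3 of 3 in both groups at MGMT. Each line gives the 250 bases before the gene's start, read 5′ to 3′ on the gene's strand, from RefSeq promoter sequences of GRCh38.p14. Capitals mark matches, on either strand, to the AP-1 motif TGANTCA, the CREB motif TGACGTCA, the GC box core GGGCGG, the NF-Y box CCAAT, the TATA box core TATAAA, the ETS-type motif CCGGAAG, the TEAD core GGAATG or the palindromic NRF1 motif, and overlapping matches run together. A match is a description and not a binding site.
MADCAM1 (chr19:496236-496485, plus strand): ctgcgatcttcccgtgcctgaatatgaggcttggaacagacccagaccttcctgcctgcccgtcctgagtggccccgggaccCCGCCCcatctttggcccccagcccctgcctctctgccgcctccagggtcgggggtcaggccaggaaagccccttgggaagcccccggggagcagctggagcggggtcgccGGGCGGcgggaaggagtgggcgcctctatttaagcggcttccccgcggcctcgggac
COCH (chr14:30874309-30874558, plus strand): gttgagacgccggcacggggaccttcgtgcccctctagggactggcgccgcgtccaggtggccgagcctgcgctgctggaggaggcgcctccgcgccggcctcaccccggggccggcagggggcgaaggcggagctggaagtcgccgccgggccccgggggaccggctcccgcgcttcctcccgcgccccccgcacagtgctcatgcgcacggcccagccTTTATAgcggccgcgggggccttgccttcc
MEF2B (chr19:19170264-19170513, minus strand): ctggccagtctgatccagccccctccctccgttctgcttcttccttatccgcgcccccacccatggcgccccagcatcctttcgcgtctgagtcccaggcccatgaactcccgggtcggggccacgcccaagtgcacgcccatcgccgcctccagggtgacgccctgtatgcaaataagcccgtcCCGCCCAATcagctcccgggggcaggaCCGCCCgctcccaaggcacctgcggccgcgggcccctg
SYNGR1 (chr22:39349741-39349990, plus strand): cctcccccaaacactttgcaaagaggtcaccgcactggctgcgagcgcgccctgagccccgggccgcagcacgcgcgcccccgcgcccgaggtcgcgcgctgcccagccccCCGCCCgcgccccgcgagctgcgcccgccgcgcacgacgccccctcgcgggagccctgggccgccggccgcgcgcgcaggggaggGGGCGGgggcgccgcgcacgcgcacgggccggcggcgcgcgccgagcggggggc
USP2 (chr11:119364209-119364458, minus strand): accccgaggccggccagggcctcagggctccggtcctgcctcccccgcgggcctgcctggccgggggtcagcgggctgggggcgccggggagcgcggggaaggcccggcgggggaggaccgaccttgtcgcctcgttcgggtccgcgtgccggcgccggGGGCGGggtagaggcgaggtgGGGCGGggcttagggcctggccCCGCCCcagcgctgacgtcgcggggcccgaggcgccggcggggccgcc
SMTN (chr22:31084746-31084995, plus strand): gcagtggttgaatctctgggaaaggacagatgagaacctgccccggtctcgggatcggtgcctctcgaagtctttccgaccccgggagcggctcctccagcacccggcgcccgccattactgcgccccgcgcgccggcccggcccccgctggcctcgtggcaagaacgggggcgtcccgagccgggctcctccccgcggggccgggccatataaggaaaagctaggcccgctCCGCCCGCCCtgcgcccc
RAB42 (chr1:28592015-28592264, plus strand): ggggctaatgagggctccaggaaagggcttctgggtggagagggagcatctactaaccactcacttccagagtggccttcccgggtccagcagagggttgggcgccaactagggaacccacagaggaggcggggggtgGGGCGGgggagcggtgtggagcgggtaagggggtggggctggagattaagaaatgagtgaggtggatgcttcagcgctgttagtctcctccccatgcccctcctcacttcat
MGMT (chr10:129466991-129467240, plus strand): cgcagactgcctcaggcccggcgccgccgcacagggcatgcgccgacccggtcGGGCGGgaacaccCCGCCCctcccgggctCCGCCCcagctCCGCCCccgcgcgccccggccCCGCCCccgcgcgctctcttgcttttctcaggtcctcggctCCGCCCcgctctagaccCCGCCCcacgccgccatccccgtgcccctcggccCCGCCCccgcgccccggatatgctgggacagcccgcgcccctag

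The promoter windows of MADCAM1, COCH, MEF2B, SYNGR1 and USP2 differ in their letters. MADCAM1 has 20 CpG dinucleotides over its 300-base window (250 bases before to 50 after the start), COCH has 40, MEF2B has 28, USP2 has 44 and SYNGR1 has 55. GGGCGG is capitalised in MADCAM1, MEF2B, SYNGR1, USP2, SMTN, RAB42 and MGMT. The COCH window holds TATAAA and the MEF2B window also holds CCAAT. RAB42, with 7 CpG, is the poorest in CpG of the 8 windows shown. The region covered all 250 printed bases at COCH, SYNGR1, SMTN, RAB42 and MGMT, 211 at MEF2B, 167 at USP2 and 57 at MADCAM1, where the rest of the region lay further upstream.

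Over all members, 56 overlapped 65 promoter windows of 58 genes, of which 37 are protein-coding. CCGGAAG was in 4.62% of these 65 windows, against 16.8% of the 17174 promoter windows that overlapped any region of the 3 MDA-MB-231 control lists and 10.3% of all 34961 windows. CCAAT was in 24.6%, against 33.7% and 34.6%. TGANTCA was in 7.69%, against 6.38% and 7.68%. GGGCGG was in 64.6%, against 67.9% and 45.0%. TATAAA was in 6.15%, against 5.32% and 11.5%, and GGAATG in 7.69%, against 11.6% and 14.0%. TGACGTCA and the NRF1 motif were in 0 of the 65 windows, against 2.81% and 2.14% of the control windows. The median CpG number per 300-base window was 16, against 26 and 14. It was thus lower than at promoters open in control cells, but the sets were not matched for gene type or peak strength. Protein-coding windows were overlapped by 38 of the 56 members and by 9883 of the 11448 control regions at a promoter window. These shares rest on 65 windows, several of which belong to 1 gene.

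The closed regions were weak in untreated cells. Strength is given here as the rank of a region's highest peak by the deposited peak area within its own list, in percent. The median rank of the 1350 members was 19.6, 15.4 and 20.1 in control replicates 1 to 3, against 60.5, 54.3 and 57.3 for all regions of the 3 control lists. Their median areas were 328, 306 and 343, close above the lowest area of 200 that any list holds, against 909, 880 and 934. Members were also narrower, with a median width of 545 bp against 840 bp. With strength as the lowest of the 3 control ranks, the median was 9.03 for members and 51.2 for all control regions.

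The share that closed fell along the ranks. Of 6814 control regions with a strength up to 10, 728 closed (10.7%), followed by 5.16% from 10 to 20, 2.12% from 20 to 30, 0.993% from 30 to 40 and 0.183% from 40 to 60. None of the 30260 regions above 60 closed, and the strongest member, in MBP, had a strength of 59.98. Just outside the rule, 2132 regions were in 3 of 3 control lists and 1 of 3 day 10 lists, with a median strength of 10.7, and 3740 were in 2 day 10 lists, with 15.5. Another 1965 regions were in 2 control lists and no day 10 list. Without MDA-MB-231 day 10 replicate 3, the longest of the 3 day 10 lists, 3067 regions met the rule. Without control replicate 1 it was 2286 and without control replicate 2 it was 2095. When each list was reduced to its 50000 peaks of highest area, 2655 regions met the rule and 18 of the 1350 were among them. Of the 1350 members, 1332 were no longer in all 3 reduced control lists. Of the 2655 regions, 2637 had a weaker day 10 peak in the whole lists.

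**Figure D1:**
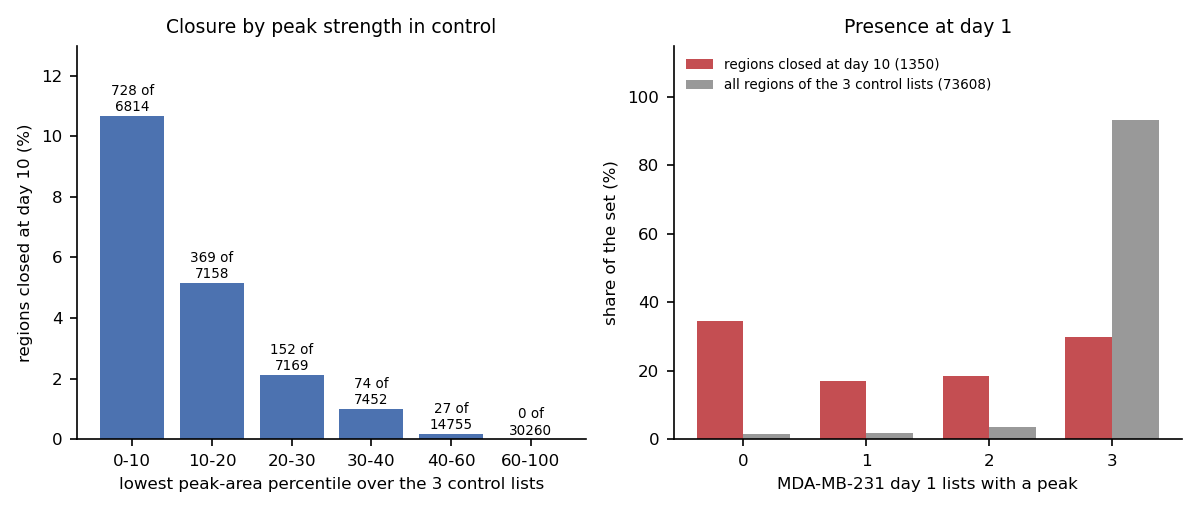
Left, the share of regions of the 3 MDA-MB-231 control lists that closed at day 10, in percent, by the lowest of the 3 control peak-area percentiles, with counts above the bars: it falls from 10.7% (728 of 6814) to 0 of 30260. Right, the share of closed regions and of all control regions, in percent, with a peak in 0, 1, 2 or 3 of the MDA-MB-231 day 1 lists: 34.6% of closed regions were in no day 1 list, against 1.37% of all control regions.

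At day 1 the members fell into unlike classes. Of the 1350, 467 (34.6%) were already absent from all 3 day 1 lists, 229 were in 1 list, 250 in 2 and 404 (29.9%) in all 3. Among all 73608 control regions, 1012 were absent from all day 1 lists (1.37%). By list, day 1 replicates 1 to 3 had a peak in 56.3%, 36.1% and 51.4% of the members and in 97.3%, 94.3% and 97.2% of all control regions. Replicate 2, the day 1 list with the fewest peaks, had the lowest share of both. Day 1 and day 10 were both read against the same control lists, so these counts are not independent of the rule. The 467 regions absent at day 1 had a median strength of 7.13 and a median width of 517 bp, and the 404 present in all day 1 lists had 13.3 and 610 bp.

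Among members already absent at day 1, the strongest by rule lay in genes of several kinds. The region in UBTD1, a ubiquitin-like domain protein, had area ranks of 61.4, 50.7 and 56.8 in the 3 control lists and no peak in any treated MDA-MB-231 list (chr10:97532946-97533717, gene body). At HGFAC, which encodes a protease that activates hepatocyte growth factor, a region of 3082 bp at the gene end ranked at 47.7, 36.6 and 65.2. Next to FGFRL1, a member of the FGF receptor family without a kinase domain, an intergenic region 2262 bp from the gene ranked at 44.9, 39.7 and 66.0. A region in CMIP ranked at 50.3, 43.5 and 47.5 in MDA-MB-231 control and had a peak in 3 of 3 PC3 lists of each group. The regions at HGFAC and FGFRL1 had none in any PC3 list.

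Other members kept a peak of similar rank at day 1 and had none at day 10. In ZNF282, a zinc finger gene, the region at chr7:149198874-149199968 ranked at 65.6, 53.8 and 59.7 in control and at 80.9, 69.7 and 76.9 at day 1. In ASAP1, which encodes a GTPase-activating protein for Arf, the ranks were 70.0, 63.3 and 56.5, then 67.1, 63.6 and 70.9. Both had a peak in 3 of 3 PC3 lists of each group, so their absence was seen in MDA-MB-231 day 10 lists alone. In SH3PXD2A, which encodes a scaffold of invadopodia, the ranks were 52.3, 59.1 and 70.5 in control and 57.7, 61.4 and 78.8 at day 1. In SUFU, an inhibitor of Hedgehog signalling, they were 50.2, 54.0 and 50.4, then 49.4, 8.65 and 56.3, with day 1 replicate 2 below the other lists. The neuronal adhesion gene NTM ranked at 56.4, 49.4 and 56.3, then 65.9, 61.8 and 70.1. The widest members were regions of 4411 bp in SEPTIN9, 3657 bp in MIB2 and 3618 bp in KRT80. The KRT80 region ranked at 32.3, 11.4 and 32.9 in control and at 82.0, 63.9 and 97.1 at day 1, higher in every day 1 list than in every control list, and had no peak at day 10.

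**Figure D2:**
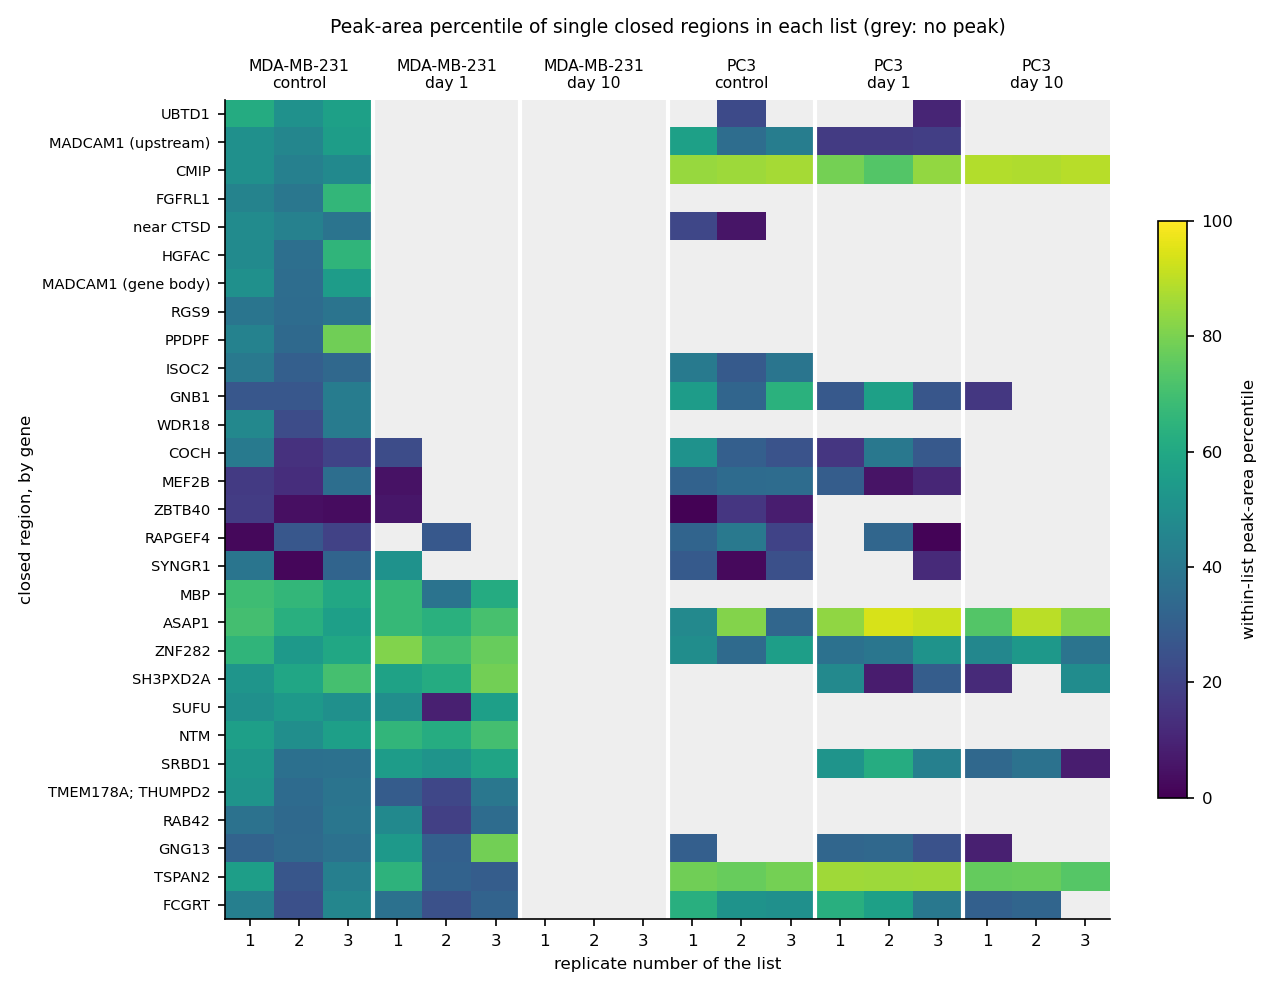
Within-list peak-area percentile (colour, 0 to 100) of closed regions chosen by strength in control or by loss at a gene end in both lines, in each of the 18 lists. Grey marks a list without a peak; all are grey at MDA-MB-231 day 10 by the rule, those from UBTD1 to WDR18 are also grey at MDA-MB-231 day 1, and the PC3 columns differ from gene to gene, as with CMIP (a peak in every PC3 list) and HGFAC (in none).

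Whether a PC3 list had a peak was not part of the rule, so PC3 gives a reading on other samples, although PC3 peaks entered the merging that set the bounds of regions. With MDA-MB-231 lists merged alone, 1384 regions met the rule, 480 of them absent at day 1. Of the 1350 members, 704 (52.1%) had no peak in any PC3 list, against 11.8% of all MDA-MB-231 control regions. The share of members with a peak was 34.2%, 30.2% and 29.5% in PC3 control, 34.6%, 26.7% and 29.0% at day 1, and 27.8%, 27.5% and 23.6% at day 10. Every day 10 list was below every control list, and day 1 lists overlapped with control. The mean was 31.3 ± 2.55% (SD, n = 3) in control and 26.3% at day 10, a difference of -5.04 points (two-sided exact permutation p = 0.1, the smallest that 3 lists against 3 allow; 0.125 after Benjamini-Hochberg adjustment over 10 tests). At day 1 the difference was -1.21 points (exact permutation p = 0.6). All MDA-MB-231 control regions moved the other way, from 75.4% to 80.8% at day 1 and 79.0% at day 10, while PC3 lists were longer. Relative to those regions, the members' share was 0.415 in control and 0.332 at day 10 (exact permutation p = 0.1, adjusted 0.125).

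The members absent at MDA-MB-231 day 1 and those still present then parted in PC3. Of the 467 already absent, 30.4%, 24.2% and 23.8% had a peak in the PC3 control lists, 21.8%, 15.6% and 16.5% at day 1 and 14.8%, 12.6% and 11.6% at day 10. Each time point lay wholly below control. The differences were -8.14 points at day 1 and -13.1 points at day 10 (exact permutation p = 0.1 for both, adjusted 0.125). Of the 404 present in all MDA-MB-231 day 1 lists, 30.9%, 30.7% and 29.2% had a peak in PC3 control, 44.6%, 33.2% and 38.1% at day 1 and 39.4%, 39.6% and 35.6% at day 10, all above control. Their differences were 8.33 and 7.92 points (exact permutation p = 0.1 for both, adjusted 0.125). All MDA-MB-231 control regions rose by 5.44 points at PC3 day 1 and 3.62 at day 10. The share of the 404 relative to those regions was not computed. The gap between the classes was 4.16 points in PC3 control, 20.6 at day 1 and 25.2 at day 10, and its own change was tested at 16.5 and 21.1 points (exact permutation p = 0.1 for both). Where a peak had to cover 50% of a region, the second class differed by 4.54 points at day 10 (exact permutation p = 0.2). With the 50000 highest peaks per list the second class differed by 0 points at day 1 and -0.990 at day 10, and the first class still differed by -1.78 and -2.64 points.

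**Figure D3:**
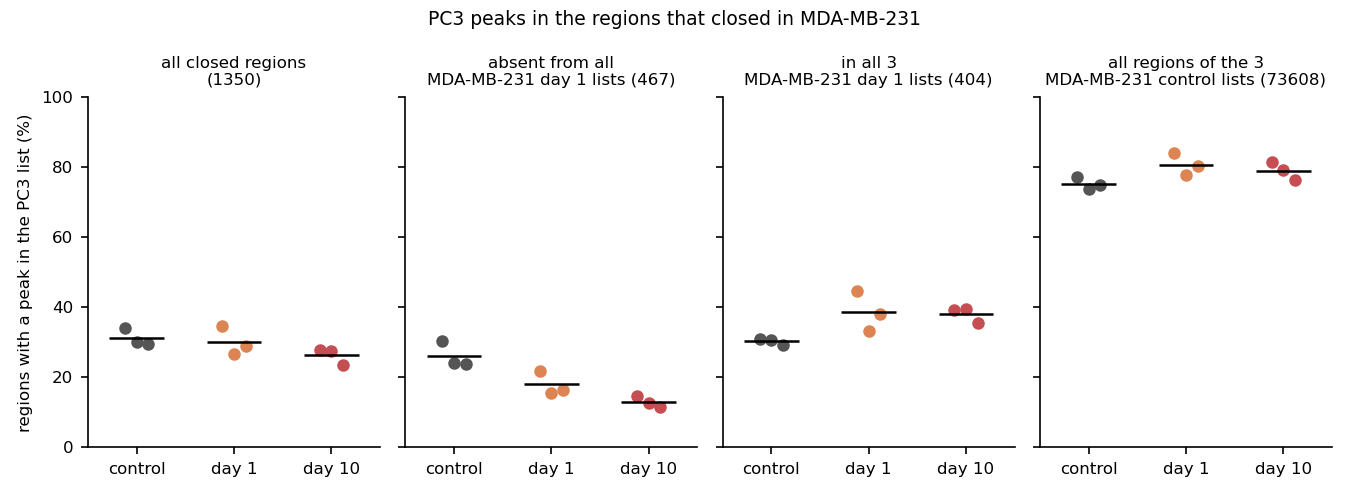
Share of regions with a peak in each PC3 list (points, percent; bars are means of 3 lists) for all closed regions, those absent from all MDA-MB-231 day 1 lists, those in all 3 of them, and all regions of the 3 MDA-MB-231 control lists. The second panel falls from a mean of 26.1% to 13.0%, the third lies at 30.3% in control and 38.2% at day 10, and the last panel lies at 75.4% and 79.0%.

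Members also had a lower PC3 share than other regions of like strength. Among control regions with a strength up to 10, a mean of 28.8% of members had a PC3 control peak, against 50.2% of the other regions of that strength. From 10 to 20 the shares were 31.4% and 58.0%, and from 40 to 60 they were 46.9% and 76.3%. At day 10 the members of strength up to 10 stood at 23.6% and the others at 57.6%. Members from 10 to 20, 20 to 30 and 30 to 40 were also below their PC3 control share at day 10. The 27 members from 40 to 60 were not, at 49.4%, with the others at 81.3%.

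The share of members lost in PC3 lay above that of all regions. Of 326 members in 3 of 3 PC3 control lists, 46 (14.1%) were in no PC3 day 10 list, against 2494 of 89016 regions in all (2.80%) and 1.38% of the MDA-MB-231 control regions open in PC3 control. At PC3 day 1 it was 18 of 326 (5.52%), against 0.864% of all regions. Of the 85 members absent at MDA-MB-231 day 1 and open in PC3 control, 22 were lost at PC3 day 10 (25.9%), and of the 97 present in all MDA-MB-231 day 1 lists 4 were lost (4.12%). Gain was counted likewise, and 22 of the 826 members with no PC3 control peak were in 3 of 3 PC3 day 10 lists (2.66%), against 18.6% of all regions without a PC3 control peak. At PC3 day 1 it was 13 of 826 (1.57%), against 7.58%. The day 1 loss of 18 was 32 without PC3 control replicate 2, 33 without control replicate 3 and 34 without day 1 replicate 1. These are shares of regions, which are not replicates, and no test was made on them. Members with a peak in PC3 control were also weak there, with median area ranks of 33.4, 38.3 and 31.2. All MDA-MB-231 control regions with a peak in the same lists had 66.8, 66.1 and 66.0. Loss was not compared between regions of like strength in PC3.

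Covered length in PC3 was then fitted across 146075 regions with a peak in at least 3 of the 9 PC3 lists, with limma on log2(bp covered + 100). Of the 1350 members 480 passed this filter, which some pass through their control peaks alone, and these had to be lower. At day 10, 139 members were lower and 26 higher at an adjusted p under 0.05 (limma, Benjamini-Hochberg), where 17.9% of all tested regions were lower and 15.6% higher. Without scaling to the total covered length of each list, 64 were lower and 23 higher, against 3.69% and 16.0% of all regions. The median log2 difference was -0.41 for members and -0.12 for all regions with scaling, and -0.20 and 0.06 without, and these medians depend on the 100 bp added. At day 1, 40 were lower and 13 higher, against 4.63% and 5.68%, and without scaling 18 and 10, against 0.548% and 5.59%. Lower members at day 10 numbered 70, 73 and 73 without PC3 control replicate 1, 2 or 3 and 79 without day 10 replicate 3. Higher ones numbered 15, 11 and 9 without day 10 replicate 1, 2 or 3. At day 1 the lower ones numbered 6, 3 and 9 without control replicate 1, 2 or 3 and 22 without day 1 replicate 3, and the higher ones 8 and 7 without day 1 replicate 1 or 3. By MDA-MB-231 day 1 class, 46 of 111 tested members were lower and 2 higher at PC3 day 10 where no day 1 list had the region. The counts were 33 and 1 of 85 for 1 list, 33 and 1 of 106 for 2 lists, and 27 and 22 of 178 for all 3.

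**Figure D4:**
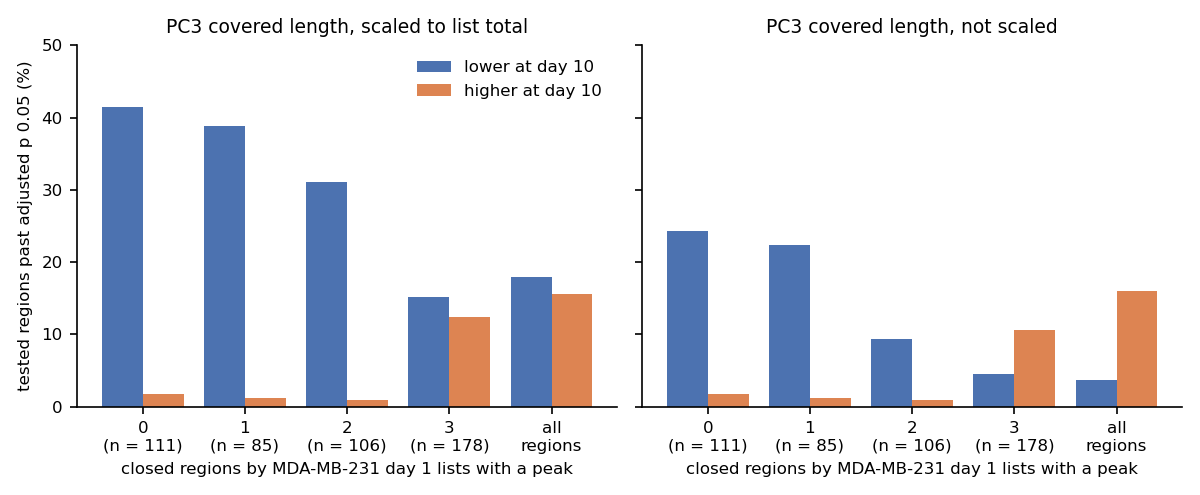
Percent of tested closed regions whose covered length was lower or higher in PC3 day 10 than in PC3 control at a limma adjusted p of 0.05, by the number of MDA-MB-231 day 1 lists with the region, beside all tested regions; left with lists scaled to their total covered length, right without. Lower calls are 46 of 111 in the first class and 27 of 178 in the last with scaling, and 27 and 8 without.

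A total of 7 members at a gene end were lost in both lines at day 10, and their loss in PC3 chose them and carries no test. The strongest was 193 bp upstream of MADCAM1, which encodes the vascular addressin bound by integrin α4β7 of lymphocytes (chr19:495364-496292, printed above). It ranked at 50.2, 45.7 and 55.8 in MDA-MB-231 control and had no peak in any treated MDA-MB-231 list. In PC3 it ranked at 56.8, 35.9 and 42.2 in control and at 17.3, 17.3 and 18.7 at day 1, below every control list, and had no peak at day 10. COCH, which encodes the matrix protein cochlin, had its start in a region ranked at 41.0, 14.3 and 20.1 in MDA-MB-231 control, and only replicate 1 had a day 1 peak, at 23.2. In PC3 the COCH ranks were 51.0, 30.1 and 25.4 in control and 15.9, 40.0 and 27.9 at day 1, which overlap, before none at day 10. It was the single control region of COCH within 10 kb.

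The other 5 were at MEF2B, SYNGR1, ISOC2, RAPGEF4 and ZBTB40. MEF2B, a MADS-box transcription factor, ranked at 31.5, 34.9 and 35.2 in PC3 control. SYNGR1 encodes a protein of synaptic vesicles, and its region ranked at 38.7, 1.77 and 32.4 in MDA-MB-231 control. At ISOC2, ranks of 40.5, 30.3 and 33.6 in MDA-MB-231 control and 41.4, 28.2 and 38.9 in PC3 control were followed by no peak at either time in either line. RAPGEF4 encodes a cAMP-activated exchange factor for Rap, and ZBTB40 a zinc finger protein, with control strengths of 1.97 and 3.20. Another 39 members lost in both lines were not within 1 kb of an outer end of a protein-coding gene. Of these, 3 were picked after their values were seen, namely regions at USP2, LMNB1 and NF2. The USP2 region lies at an internal start of that gene and overlaps the promoter window printed above. The region in LMNB1, lamin B1 of the nuclear lamina, ranked at 6.25, 15.7 and 19.2 in MDA-MB-231 control and at 24.4, 28.3 and 20.2 in PC3 control, and neither line had a peak at day 1 or day 10. The region in the tumour suppressor gene NF2 had strength 8.34, again with no later peak in either line. Of all 46, 18 had no peak in any PC3 day 1 list either.

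Members tended to lie inside genes and away from gene starts. In the RefSeq table, 12.0% were within 1 kb of an end of a protein-coding gene (95% Wilson interval 10.4 to 13.8), against 18.8% of all control regions, and 6.30% within 1 kb of a start, against 14.9%. Gene bodies held 68.4% (65.9 to 70.9), against 59.99%. With a gene-end window of 5 kb the gene-end shares were close, at 30.6% and 31.3%. The intervals cover counting error only. Members were weaker and narrower than control regions, and position was not compared between regions of like strength or width. Another 280 members (20.7%) had no protein-coding gene within 10 kb, against 29.0% of control regions, and the median distance to the nearest region that kept its peak in all day 10 lists was 2588 bp, against 4948 bp for all control regions.

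By chromosome, closure ran from 1.25% of control regions on chromosome 18 (13 of 1042) to 3.13% on chromosome 19 (101 of 3232). Of the 101 on chromosome 19, 59 were already absent at day 1. Chromosomes X (2.58%), 16 (2.55%) and 22 (2.55%) followed. Members also lay towards the outer ends of chromosomes, a measure chosen after the data were seen and not compared at like strength. Within 5 Mb of the outermost region of a chromosome lay 20.2% of members (95% Wilson interval 18.2 to 22.4), against 10.9% of control regions. It was 28.5% (24.6 to 32.7) for those absent at day 1 and 14.9% (11.7 to 18.6) for those in all day 1 lists. From 0 to 1 Mb 3.73% of control regions closed, from 1 to 2 Mb 4.46%, and beyond 20 Mb 1.53%. With 50000 peaks per list the outer shares were 14.5% and 12.2%. The 831 windows of 1 Mb with a member held 1 member in 532 cases and 5 or more in 24. The fullest were chr9:136000001-137000000 (12 of 128 control regions) and chr19:1-1000000 (12 of 95), and chrX:10000001-11000000, with 3 protein-coding genes, lost 7 of 45.

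**Figure D5:**
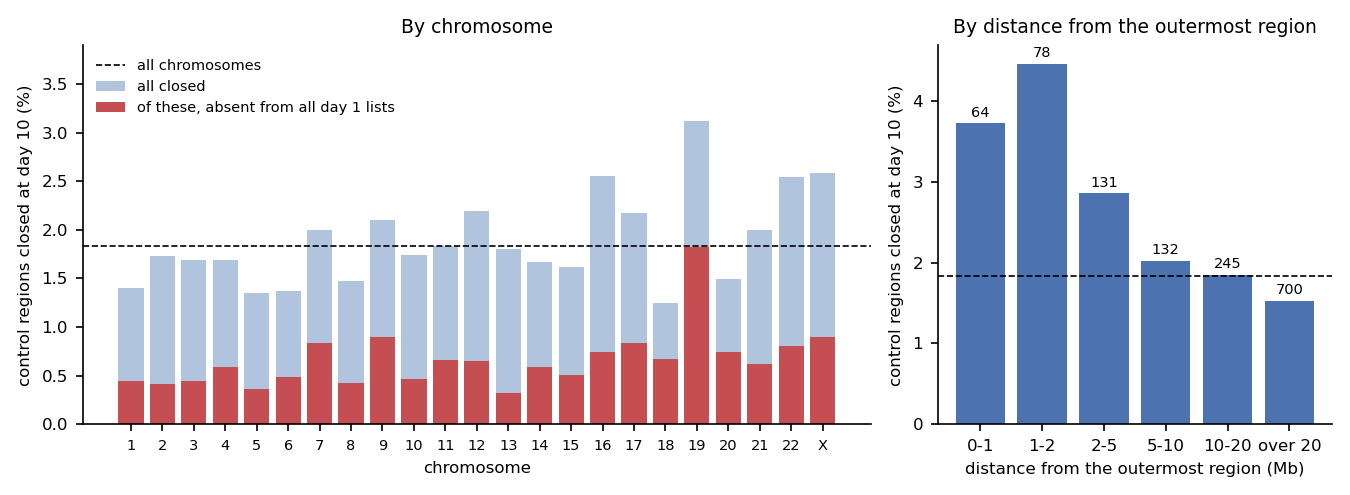
Left, percent of regions of the 3 MDA-MB-231 control lists that closed at day 10 by chromosome, with the part already absent from all day 1 lists in red and the value over all chromosomes as a dashed line: chromosome 19 is highest at 3.13%, with 59 of its 101 absent at day 1. Right, the same percent by distance from the outermost region of the chromosome in Mb, with numbers of closed regions above the bars: it runs from 3.73% and 4.46% to 1.53%.

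A member lay in the body or within 10 kb of 1213 of 19974 protein-coding genes (6.07%). Loss was seldom of a whole gene: 1092 of these genes had more kept regions than closed ones, and 141 had 2 or more members. MID1, the microtubule-bound ubiquitin ligase of Opitz syndrome, had 5 closed of 20 control regions and lies in the chromosome X window named above. KAZN, which encodes the desmosome-associated kazrin, had 5 of 43. MADCAM1 had 4 of 8, 3 of them absent at day 1, and its neighbour CIMAP1D shared these regions (4 of 11). POC1B-DUSP6 had 4 of 17. Beside these stood FSD1 (3 of 4), SYNGR1 (3 of 5) and NAT8L (3 of 6), the last the enzyme of N-acetylaspartate synthesis. In 17 genes every control region closed, and each of these had 1 region. Among them were COCH, PHLDA2, an imprinted gene, and MGMT, which encodes the repair protein that removes alkyl groups from guanine. The MGMT region (chr10:129466830-129467421) ranked at 59.9, 27.2 and 22.0 in control and at 53.0, 26.3 and 6.15 at day 1, and had a peak in 3 of 3 PC3 control and 3 of 3 PC3 day 10 lists. MGMT also had 2 regions that were in no MDA-MB-231 control list and in 3 of 3 day 10 lists. SMTN, the gene of smoothelin in smooth muscle, lost a region at each of 2 promoter windows, the stronger ranked at 59.1, 44.9 and 45.6 in control and 1.57 in day 1 replicate 1 alone.

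The 31 gene lists are read against 2.05%, the closed share of the 52294 control regions within 10 kb of any protein-coding gene. A list holds 28 to 205 such regions and lost 0 to 6 of them, and no test was made on any list. The highest shares were 8.93% for cancer driver and suppressor genes and 6.33% for nuclear lamina and envelope genes. None of 65 regions of p53 targets closed, and none of 44 for AP-1 factors, 68 for the NF-kappaB pathway, 61 for mitosis, 63 for oxidative stress and 64 for endothelial genes. Crosslink and recombination repair lost 2 of 93, in FANCL, the ubiquitin ligase of the Fanconi pathway, and near RAD51B. The nucleotide excision and mismatch repair list also held damage tolerance genes such as RAD18, and its 1 loss of 92 was in RAD18. BCL2 family and death receptor genes lost 2 of 105, both in CASP8, which starts the caspase cascade, with the stronger at 35.9, 32.3 and 31.0 in control and no peak at day 1.

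Cell cycle and growth factor lists held some of the larger counts. G1/S and replication lost 5 of 98, at CCND1, CDK4, CDK6 and MCM5. Cyclin D1 had 2 of them in its body: chr11:69646456-69648524 ranked at 78.5, 36.2 and 51.4 in control and 17.2, 19.8 and 49.0 at day 1, and chr11:69649996-69650966 at 55.9, 24.9 and 36.7, then 50.8, 17.1 and 39.7. Neither had a peak in PC3. Cancer driver and suppressor genes lost 5 of 56, at CCND1, NF2 and RUNX1, and share CCND1 with the G1/S list. FGF, PDGF and VEGF signalling lost 6 of 131, at FGFR3, FGFR4, PDGFB and PDGFC, 4 of them absent at day 1. EGF receptor and ligands lost 2 of 101, at ERBB4 and HBEGF, and the TGF-beta pathway 1 of 160, at its inhibitor SMAD7. YAP and TEAD genes lost 5 of 121, at YAP1, CCN2, AXL and ARHGEF17.

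Among identity and matrix genes, the mesenchymal list lost 6 of 118, at SPARC, AXL, ITGA5 and LOXL2. The SPARC region, 6996 bp from the gene of this secreted matrix protein, ranked at 59.2, 68.4 and 51.0 in control and at 45.7 and 41.3 in day 1 replicates 1 and 3, with none in replicate 2, and was in all 9 PC3 lists. The region in AXL, a receptor kinase, ranked at 31.2, 19.5 and 45.0 in control and 43.2, 46.1 and 49.2 at day 1. Epithelial genes lost 1 of 78 (OVOL1), luminal and basal breast factors 1 of 67 (GATA3, 454 bp from the gene), integrin and focal adhesion genes 4 of 186 and extracellular matrix genes 2 of 139. Nuclear lamina and envelope genes lost 5 of 79, at LMNA, LMNB1 and SYNE1, the last encoding nesprin-1, which ties the nucleus to the cytoskeleton.

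The remaining lists lost 4 regions or fewer each, with closed shares from 0.855% for neuronal genes to 5% for secretory inflammatory genes. The share near any protein-coding gene was 2.05%. Secretory inflammatory genes lost 4 of 80, at CCL20, IL11 and IGFBP7. Platinum and drug transporters lost 4 of 91, at the efflux pumps ABCC2 and ABCC3 and at LRRC8A, a subunit of the volume-regulated anion channel. Chromatin modifiers lost 3 of 205, at ARID1B, EZH2 and HDAC9, all absent at day 1. Cholesterol and fatty acid synthesis lost 2 of 61, hypoxia 1 of 78, interferon-stimulated genes 1 of 46, neuronal genes 1 of 117, haematopoietic genes 2 of 48, HOX genes 1 of 28 and housekeeping genes 2 of 54, both at HSPA8. Accessible regions say nothing here of expression, which was not measured.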

How the data were processed

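ATAC-seq libraries of 54 samples in 6 groups were deposited as 18 narrowPeak lists without headers, 1 per biological replicate. The submitters' processing notes name Bowtie2 2.3.5.1, SAMtools 1.6, Picard, Genrich 0.6.2 and the build GRCh38. How triplicate libraries became 1 list was not stated. The deposited column 7 is a score, read from its values as the authors' peak area (lowest value 200) and served for ranks within each list. Column 8 holds the deposited -log10 p-value (lowest value 2.52) and was not used further. Depth cannot be known from these files, and neither can reads per region.

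Groups were read from the cell line, treatment and number in list names and sample titles. Peaks that overlapped or touched were merged over all lists. Gene positions are those of RefSeq for GRCh38.p14, in a table that gives no exons, and strand was known for the 15812 of 19974 protein-coding genes with a promoter sequence. Gene ends were used for the others. All 58 genes with an overlapped promoter window are in that table, and no genome sequence was used, so no sequence of a whole region is printed.

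For PC3 shares, exact permutation tests over lists (two-sided) were run in SciPy 1.17.1, under Python 3.11.15. Covered bp per region, scaled to the mean total covered length, was fitted as log2(bp + 100) by limma 3.58.1 (R 4.3.3). The fit held all 9 PC3 lists, had 6 residual degrees of freedom and used Benjamini-Hochberg adjusted p-values with a threshold of 0.05. The fit and the permutation test were tested on simulated data, where the fit missed most of the smallest changes and many of the largest, so a region without a call is not shown to be unchanged. Nothing in the labels shows that same-numbered lists are pairs.

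The members, gene lists and tests were chosen with earlier results of these data known. Single regions were named by rule: the strongest members at gene ends and elsewhere from both day 1 classes, the genes with most members, up to 2 members per gene list, members at gene ends lost in both lines and the 3 widest. SMTN, MGMT, USP2, LMNB1 and NF2 were named after their values were seen. A region in 1 further gene is not reported here. Alternatives were other overlaps, merges, peak thresholds, gene windows and scalings, and each list left out.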

Additional observations from a re-analysis of the deposited data

How the results depend on the processing

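Overlap, merging and the added bp (25 or 400) kept the main counts within 1.5 times; the threshold on peaks and single lists did not. Where a peak had to cover 50% of a region, 1992 of 47173 control regions closed (4.22%), 50 of 239 members open in PC3 control were lost at PC3 day 10 (20.9%, against 6.76% of all regions), and the PC3 day 10 difference of members in all MDA-MB-231 day 1 lists was 4.54 points (exact permutation p = 0.2). Lists reduced to their 50000 highest-area peaks gave 2655 regions that met the rule, 1386 of them absent at day 1, and with the upper 50% of each list 399, of which 102 were absent at day 1 and 122 in all day 1 lists. Leaving out 1 MDA-MB-231 list gave from 1385 to 3067 regions, from 474 to 975 absent at day 1 and from 420 to 1107 in all day 1 lists.

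The PC3 day 10 differences of all members and of those absent at day 1 stayed negative under every alternative run. With the upper 50% of each list the former was -0.222 points (exact permutation p = 0.8). The day 1 difference of all members changed sign to 0.691 points with the upper 50% of each list and ranged from -3.46 to 0.506 with 1 list left out, being 0.247 without PC3 control replicate 1 and 0.506 without PC3 day 1 replicate 2. For members in all MDA-MB-231 day 1 lists, the 50000 highest peaks gave 0 points at day 1 and -0.990 at day 10; these subset alternatives were chosen after seeing the data. Members lost in PC3 at day 1 numbered from 20 to 34 with 1 list left out.

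Members at a gene end made up 8.07% with a 500 bp window, 30.6% with 5 kb and 14.5% with the upper 50% of each list. In the limma fit, lower members at day 10 and day 1 numbered 64 and 18 without scaling, and 31 and 15 with the 50000 highest peaks, where 9 and 6 were higher. With all 18 lists in 1 fit 40 and 27 were higher. With 1 list left out, at day 10 from 70 to 123 were lower and from 9 to 26 higher, and at day 1 from 3 to 33 and from 7 to 15. The replicate block gave 120 lower at day 10 and 26 at day 1. Same-numbered lists correlated by 0.0768, 0.158 and 0.0433 in their deviations at day 10. The highest values with another number were -0.0224, -0.0272 and 0.0606. At day 1 the values were 0.0272, -0.0804 and 0.0188, against 0.0556, 0.0548 and 0.0440. Replicates 1 and 2 at day 10 thus stood above the other numbers, and replicate 3 and all of day 1 below. Whether same-numbered lists are pairs was not tested. The causes of these changes were not tested.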
